A study of Mus musculus with 18 samples.

Results

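The 10 genes described here encode proteins of the lipid droplet surface and of droplet formation in mouse liver: the perilipins Plin1, Plin2, Plin3, Plin4 and Plin5, the CIDE genes Cidea, Cideb and Cidec, and the fat storage-inducing genes Fitm1 and Fitm2. They were taken as a family by name, with every array probe whose accession maps to 1 of these symbols. All 10 had a probe among the 21153 genes named on the array. Cideb and Cidec have 2 probes each, which makes 12 probes. All 12 passed the filter on dim probes, and 11 of them lay well above background on all 18 arrays. A gene is read on its brighter probe, by the mean over the 18 arrays, unless the second probe is named. In every HFD liver, though, the second probe of Cidec was the brighter, with a group mean of 1.77 against -0.31.

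RNA from the livers of 18 C57BL/6 male mice was hybridised to 18 one-colour Agilent arrays, 1 per mouse. From 6 weeks of age the mice ate a low fat diet (LFD, 10% fat) or a high fat diet (HFD, 60% fat). After 10 weeks the treated mice received 5 intraperitoneal rounds of methotrexate at 50 mg/kg (MTX50), an antifolate used in chemotherapy, and livers were taken 1 week after the last round. The groups were untreated LFD (n = 4), LFD MTX50 (n = 5), untreated HFD (n = 4) and HFD MTX50 (n = 5), all of the same strain, and the question was how the diet and the drug alter liver gene expression.

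A level is the log2 signal of a probe minus the 75th percentile of its array, so a level of 0 is as bright as that percentile and a difference of 1 is 2-fold. The 75th percentile lay between 1203 and 2263 intensity units, and the mean correlation of an array with the others of its group lay between 0.979 and 0.993. A gene is called at a Benjamini-Hochberg adjusted p below 0.05 in limma, over all kept probes. The 4 LFD arrays fill 1 slide, the LFD MTX50 arrays lie on 2 others, and HFD MTX50 shares only slide 5 with HFD, so slide and group cannot be told apart in comparisons with LFD or LFD MTX50. The 7 hepatocyte markers, albumin among them, summed to between 635 and 1048 times the 75th percentile per liver. In whole liver, fewer cells of a type and less RNA per cell cannot be told apart.

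Hepatocytes store triglyceride and cholesteryl ester in droplets that bud from the endoplasmic reticulum and carry a coat of proteins. Perilipins cover the droplet and limit the access of lipases: Plin2 is the main coat of hepatocyte droplets, Plin3 a widely expressed one, Plin5 is found in oxidative tissues and at contacts with mitochondria, and Plin1 and Plin4 are best known from adipocytes. Cidea and Cidec sit at contacts between droplets and let lipid pass from the smaller to the larger, and both are known to be induced in fatty liver, whereas Cideb is the hepatocyte member that also acts in the lipidation of very low density lipoprotein. Fitm1 and Fitm2 are membrane proteins of the endoplasmic reticulum that act in droplet budding, Fitm1 being best known from muscle.

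Part of the family was higher on the high fat diet, and part was lower with methotrexate. Of the 10 members, 5 were called in HFD vs LFD, all of them higher (Cidea, Cidec, Plin1, Plin4 and Fitm1), where 28.3% of all 19597 genes tested were called. In LFD MTX50 vs LFD, 4 were called, with Fitm1, Plin2 and Cideb lower and Plin1 higher, against 28.1% of all genes. Another 4 were called in HFD MTX50 vs HFD, all lower (Cidea, Cidec, Fitm1 and Fitm2), against 11.0% of all genes. In HFD MTX50 vs LFD MTX50, Fitm1 was higher and Plin1 lower, 2 of 10 against 16.1% of all genes. The members' median log2 difference was 0.58 for HFD vs LFD, -0.40 for LFD MTX50 vs LFD, -0.54 for HFD MTX50 vs HFD and 0.09 for HFD MTX50 vs LFD MTX50. Over all genes tested it was 0.08, 0.10, -0.04 and -0.06. The comparisons of HFD with LFD and with HFD MTX50 share the 4 HFD livers, and those of LFD with HFD and with LFD MTX50 share the 4 LFD livers, so their values are given side by side only.

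**Figure D1:**
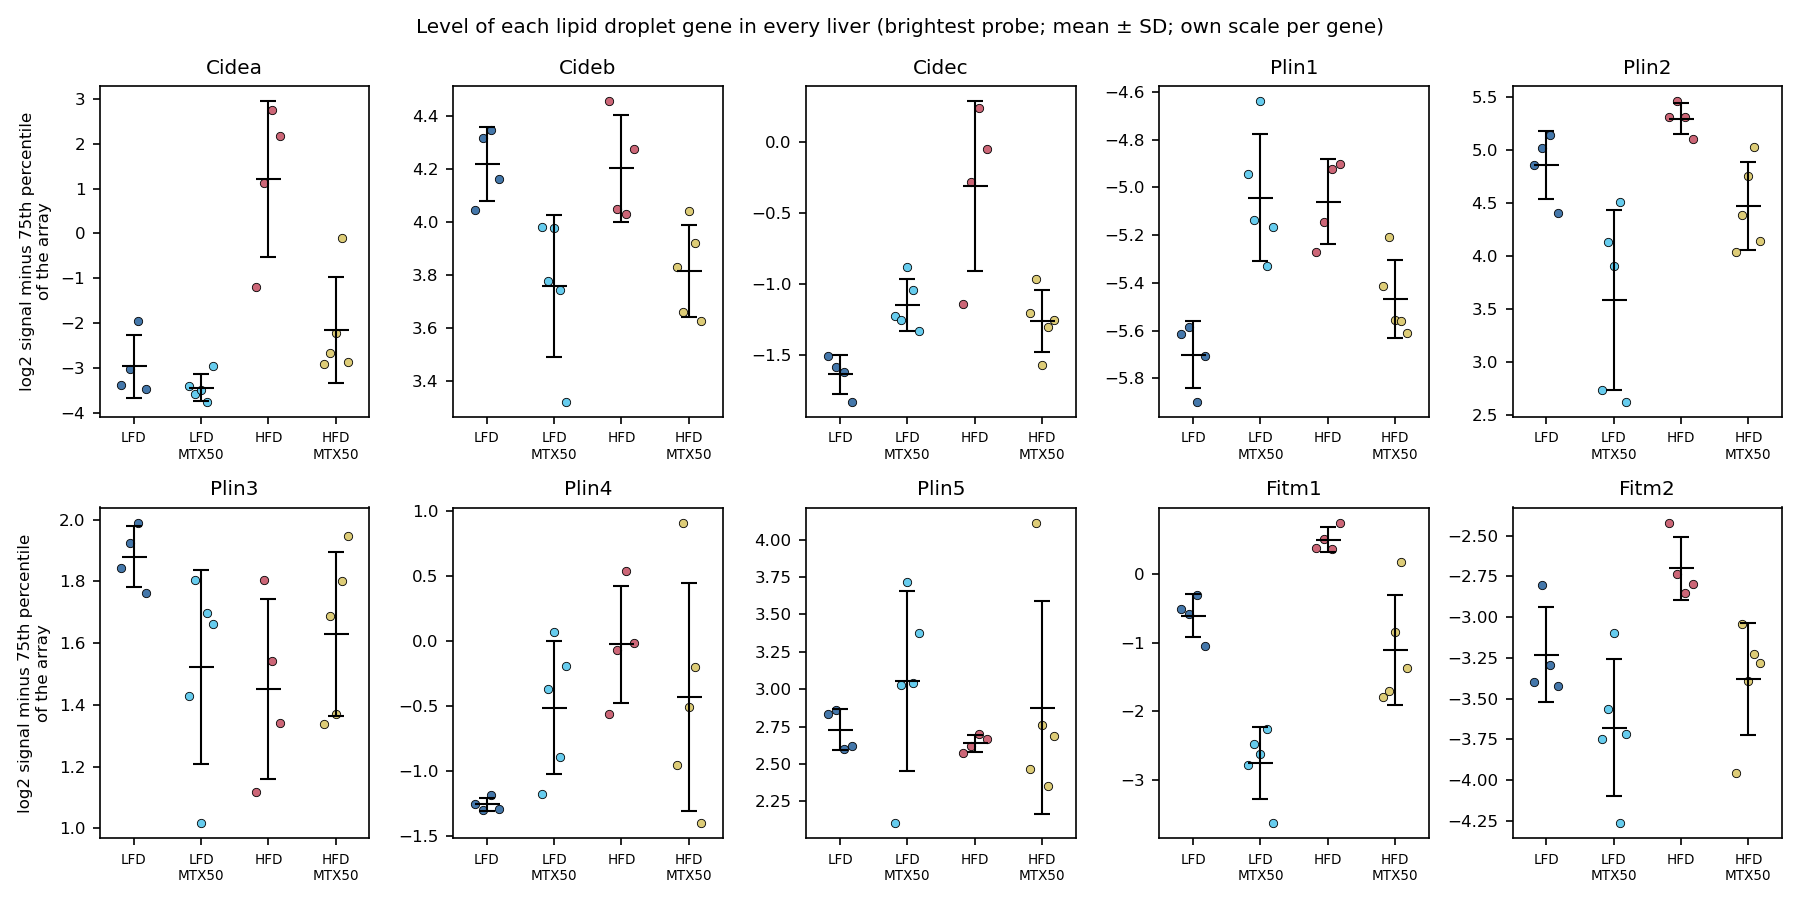
Level of each of the 10 genes in every liver, as log2 signal minus the array's 75th percentile (y axis, own scale per gene), in the 4 groups (x axis). Points are mice in order of their number, and bars show the mean and SD. The HFD group has the highest mean for Cidea, Cidec and Fitm1, with HFD mouse 1 below some treated livers for Cidea and Cidec, and the LFD MTX50 livers stand lowest for Fitm1.

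Cidea, which promotes droplet enlargement, showed the widest range of the 10 genes on the brighter probes. Its level was -3.38, -3.02, -1.95 and -3.47 in the 4 LFD livers and -1.19, 1.13, 2.74 and 2.17 in the 4 HFD livers. In HFD MTX50 it was -2.90, -2.66, -2.22, -0.095 and -2.86, and in LFD MTX50 it ranged from -3.75 to -2.96. All HFD livers lay above all LFD livers, HFD mouse 1 being the lowest of its group, and HFD MTX50 mouse 4 lay above that mouse, so that the treated and untreated HFD groups overlapped. The mean was 4.17 ± 0.70 higher in HFD than in LFD (log2 difference ± SE, 17.9-fold, limma adjusted p = 0.0029), with an exact permutation p of 0.029, the smallest that 4 against 4 mice allow. With methotrexate it fell by 3.36 ± 0.67 on the high fat diet (10.3-fold, adjusted p = 0.0098, exact p = 0.024). Between the 2 HFD MTX50 and 2 HFD livers of the shared slide the log2 difference was -5.24. On the low fat diet the value with methotrexate was -0.48 (95% interval -1.88 to 0.93, adjusted p = 0.60). Without HFD mouse 1 the 2 called differences were 4.97 and -4.16.

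Cidec, which acts at the same droplet contacts, was higher in HFD on both of its probes. On the brighter probe the level was -1.50, -1.58, -1.61 and -1.83 in LFD and -1.14, -0.28, 0.24 and -0.05 in HFD. It was -1.22, -1.25, -0.88, -1.04 and -1.33 in LFD MTX50 and -1.20, -0.96, -1.57, -1.30 and -1.25 in HFD MTX50. The HFD livers lay above all LFD livers, with HFD mouse 1 again the lowest of the 4. The HFD mean was 1.32 ± 0.22 higher than LFD (2.50-fold, limma adjusted p = 0.0027). It fell by 0.95 ± 0.21 with methotrexate on the high fat diet (1.93-fold, adjusted p = 0.014), and by 1.18 on the shared slide. On the low fat diet all 5 treated livers lay above all 4 untreated ones, with a difference of 0.49 that did not pass the adjustment (adjusted p = 0.082, exact permutation p = 0.0079). Without HFD mouse 3 or HFD mouse 4 the fall in HFD MTX50 was 0.77 or 0.86 and was not called (adjusted p = 0.064 and 0.061).

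On the second probe of Cidec, which carries the same accession, the level was -8.59, -2.09, -1.44 and -4.52 in LFD and 0.28, 2.40, 2.39 and 2.03 in HFD. The LFD value of mouse 1 was not well above background, and the 4 LFD livers spread over 7.15 log2 units. In HFD MTX50 the level was -1.89, -0.39, -2.74, 0.39 and -4.07, which overlapped HFD, and in LFD MTX50 it ranged from -5.04 to -4.28. The HFD mean was 5.94 ± 1.20 higher than LFD (61.2-fold, limma adjusted p = 0.0047), and 4.46 higher without LFD mouse 1 (adjusted p = 0.00818). With the slide as a random block it was not called (adjusted p = 0.063). With methotrexate on the high fat diet the difference was -3.51 ± 1.13 (11.4-fold, adjusted p = 0.054, exact permutation p = 0.024). HFD MTX50 lay above LFD MTX50 in all livers, by 2.86 ± 1.07, a difference that did not pass the adjustment (adjusted p = 0.073). On the brighter probe the same comparison gave -0.11. Both probes gave the same sign for the diet and for the drug on the high fat diet, at very different sizes. For the drug on the low fat diet their signs differed. The second probe gave -0.44 (limma adjusted p = 0.79) and the brighter probe 0.49.

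**Figure D2:**
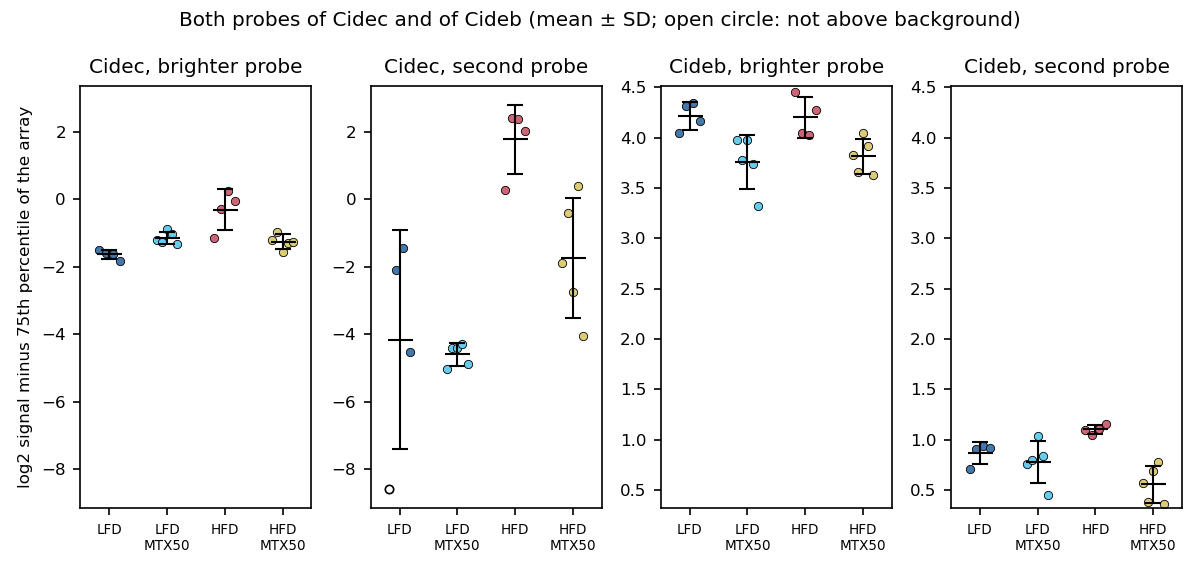
Level in every liver on both probes of Cidec (left pair) and of Cideb (right pair), as log2 signal minus the array's 75th percentile, with 1 scale per gene. Bars show the mean and SD, and the open circle is the 1 value not well above background, LFD mouse 1 at -8.59. The second Cidec probe spans far more than the brighter one, while the Cideb probes differ little between groups.

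Cideb, which acts in lipoprotein loading, hardly moved with the diet on its first probe. On its second probe all HFD livers lay above all LFD livers, by 0.24 ± 0.12. That difference did not pass the adjustment (limma adjusted p = 0.14, exact permutation p = 0.029). The level on the first probe was 4.05, 4.31, 4.34 and 4.16 in LFD and 4.46, 4.05, 4.03 and 4.27 in HFD, a log2 difference of -0.015 (95% interval -0.33 to 0.30, limma adjusted p = 0.95). In LFD MTX50 it was 3.98, 3.77, 3.98, 3.74 and 3.32, below every LFD liver. The difference was -0.46 ± 0.14 (1.37-fold, adjusted p = 0.024), and it was not called without LFD mouse 2 or LFD mouse 3 (-0.43 and -0.42, adjusted p = 0.068 and 0.069). On the second probe it was -0.09 (adjusted p = 0.58). The order was turned in HFD MTX50 vs HFD: the second probe fell by 0.55 ± 0.12 (adjusted p = 0.012), with no overlap between the groups, but was not called without HFD mouse 4 (-0.53, adjusted p = 0.053), and the first gave -0.39 ± 0.14 (adjusted p = 0.077). Neither probe was called on both diets.

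Plin2, the main hepatocyte coat, was not called with the diet and fell with methotrexate on the low fat diet. Its level was 4.86, 5.02, 5.14 and 4.41 in LFD and 5.31, 5.46, 5.31 and 5.11 in HFD. The groups overlapped slightly, and the difference of 0.44 ± 0.35 was not called (95% interval -0.30 to 1.18, limma adjusted p = 0.34). In LFD MTX50 it was 2.74, 4.13, 3.91, 4.51 and 2.62, with mice 1 and 5 far below the other three and mouse 4 within the LFD range. The mean fell by 1.27 ± 0.33 (2.42-fold, adjusted p = 0.012, exact permutation p = 0.032). In HFD MTX50 it was 4.04, 4.39, 4.75, 5.03 and 4.14, below every HFD liver. That difference was -0.83 ± 0.33 (1.77-fold), which did not pass the adjustment (adjusted p = 0.10, exact p = 0.016), and it was -0.99 on the shared slide. The effect of methotrexate differed between the diets by 0.45 (95% interval -0.54 to 1.44), which was not called.

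Plin4, which coats adipocyte and muscle droplets, was higher in HFD. Its level was -1.25, -1.29, -1.18 and -1.29 in LFD, a very narrow range, and -0.56, -0.06, 0.54 and -0.01 in HFD. The difference was 1.23 ± 0.38 (2.35-fold, limma adjusted p = 0.026, exact permutation p = 0.029). It was not called without LFD mouse 2, LFD mouse 4, HFD mouse 3 or HFD mouse 4 (1.22, 1.22, 1.04 and 1.23, adjusted p from 0.055 to 0.094). Both treated groups were scattered: the level was -1.18, -0.37, 0.07, -0.89 and -0.19 in LFD MTX50 and -0.95, 0.91, -0.51, -0.20 and -1.40 in HFD MTX50. All LFD MTX50 livers lay above the LFD livers, by 0.74 ± 0.36 on average (adjusted p = 0.12). HFD MTX50 overlapped HFD, with a difference of -0.41 (adjusted p = 0.46).

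Plin1, the adipocyte coat, was read at a low signal that was still well above background on all 18 arrays, at -5.61, -5.58, -5.90 and -5.71 in LFD. It was higher by 0.64 ± 0.14 in HFD (1.56-fold, limma adjusted p = 0.0070) and by 0.66 ± 0.14 in LFD MTX50 (1.58-fold, adjusted p = 0.0043), with no overlap with LFD in either group. In HFD MTX50 it was -5.41, -5.21, -5.55, -5.56 and -5.61, which was 0.41 ± 0.14 below HFD (adjusted p = 0.058) and fell by 0.43 ± 0.13 against LFD MTX50 (adjusted p = 0.034). With normexp background modelling and 1 background per array, an alternative chosen after the data were seen, the rises in HFD and in LFD MTX50 were 0.08 and 0.24 and were not called (adjusted p = 0.68 and 0.16). Quantile normalisation gave 0.29 and 0.26, also not called. The difference against LFD MTX50 was not called without LFD MTX50 mouse 1, 2 or 3 or HFD MTX50 mouse 3, 4 or 5 (-0.45 to -0.32, adjusted p from 0.053 to 0.089).

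Plin3 and Plin5 were called in none of these 4 comparisons. The Plin3 level was between 1.76 and 1.99 in LFD and between 1.12 and 1.80 in HFD, a difference of -0.43 ± 0.18 (95% interval -0.81 to -0.05, limma adjusted p = 0.082, exact permutation p = 0.057). With methotrexate it differed by -0.36 on the low fat diet (adjusted p = 0.12) and by 0.18 on the high fat diet (adjusted p = 0.50). Plin5, the coat of oxidative tissues, was even among untreated livers, at 2.60 to 2.86 in LFD and 2.57 to 2.70 in HFD. It was spread more widely in the treated groups, from 2.10 to 3.72 in LFD MTX50 and from 2.35 to 4.12 in HFD MTX50. HFD MTX50 mouse 2 carried the highest Plin5 and also the highest Plin4 of all 18 livers. The Plin5 difference was 0.32 with methotrexate on the low fat diet (95% interval -0.34 to 0.99) and 0.24 on the high fat diet (95% interval -0.43 to 0.90).

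Fitm1, which acts in droplet budding, was called in all 4 comparisons between groups. Its level was -0.50, -0.58, -0.30 and -1.04 in LFD and 0.38, 0.52, 0.37 and 0.75 in HFD. In LFD MTX50 it was -2.78, -2.48, -2.62, -2.25 and -3.63, and in HFD MTX50 it was -1.79, -1.70, -0.85, 0.17 and -1.37. The order of the group means was LFD MTX50, HFD MTX50, LFD and HFD, at -2.75 ± 0.53, -1.11 ± 0.80, -0.60 ± 0.31 and 0.50 ± 0.18 (SD). Of these neighbours, HFD MTX50 and LFD overlapped and were not tested against each other.

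Fitm1 was 1.11 ± 0.36 higher in HFD than in LFD (2.16-fold, limma adjusted p = 0.030, exact permutation p = 0.029). It fell by 2.15 ± 0.34 with methotrexate on the low fat diet (4.43-fold, adjusted p = 0.0012) and by 1.61 ± 0.34 on the high fat diet (3.06-fold, adjusted p = 0.012). No treated liver reached its untreated group on either diet, and HFD MTX50 mouse 4 came closest. On the shared slide the difference was -2.31. HFD MTX50 stayed 1.65 ± 0.32 above LFD MTX50 (3.13-fold, adjusted p = 0.0073), again without overlap. The rise with the diet was not called without LFD mouse 2 or 4 or HFD mouse 2, 3 or 4 (0.96 to 1.15, adjusted p from 0.054 to 0.084), nor was the fall in HFD MTX50 without HFD mouse 4 (-1.53, adjusted p = 0.054).

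Fitm2, the widely expressed relative, was called only in HFD MTX50 vs HFD among the 4 comparisons. Its level was -3.40, -2.80, -3.29 and -3.43 in LFD, -2.42, -2.74, -2.85 and -2.80 in HFD, and -3.96, -3.04, -3.39, -3.23 and -3.28 in HFD MTX50. HFD MTX50 lay below every HFD liver and fell by 0.68 ± 0.21 (1.60-fold, limma adjusted p = 0.049, exact permutation p = 0.016). This call stands at the threshold: it held in 4 of the 18 fits that left out 1 array, with adjusted p from 0.033 to 0.11, and not under quantile normalisation or median scaling (0.076 and 0.065). Fitm2 was 0.53 ± 0.22 higher in HFD than in LFD (adjusted p = 0.084) and 0.45 lower in LFD MTX50 than in LFD (adjusted p = 0.12), with overlapping groups in both.

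**Figure D3:**
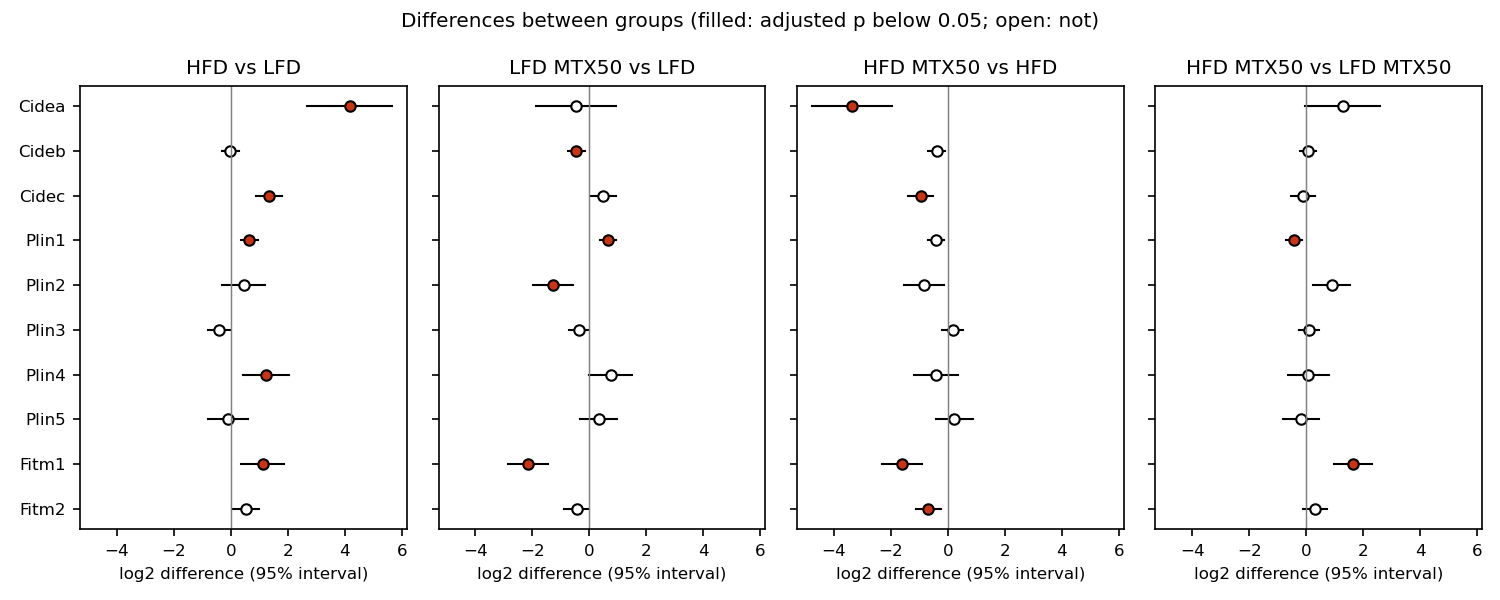
Log2 difference (x axis, with 95% interval) of each of the 10 genes (rows) in the 4 comparisons between groups (panels). Filled points passed the adjusted p of 0.05 and open points did not. Cidea has the largest rise in HFD vs LFD, 4.17, and Fitm1 is filled in all 4 panels.

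With the slide as a random block, in which arrays of 1 slide correlated at 0.262, the calls were fewer among the members and among all genes. Of all 19597 genes, 1.94% were then called in HFD vs LFD, and the share was 1.73% for LFD MTX50 vs LFD. It was 9.48% for HFD MTX50 vs HFD, 0.0919% between the treated groups and 6.37% for the difference between the treatment effects. In HFD vs LFD, Cidea and Cidec stayed called (limma adjusted p = 0.046 for each), while Plin1, Plin4 and Fitm1 did not (0.068, 0.16 and 0.10). In LFD MTX50 vs LFD, Fitm1 stayed called (adjusted p = 0.027), while Cideb, Plin1 and Plin2 did not (0.12, 0.069 and 0.094). In HFD MTX50 vs HFD, Cidea, Cidec and Fitm1 stayed called (adjusted p = 0.0094, 0.013 and 0.011) and Fitm2 did not (0.076). Within the shared slide, of 2 HFD and 2 HFD MTX50 livers, with the spread taken from all arrays, 7.3% of all genes were called. The same 3 genes were among them (limma adjusted p = 0.0048, 0.012 and 0.0056) and Fitm2 was not (0.23). No member stayed called in HFD MTX50 vs LFD MTX50, Fitm1 having an adjusted p of 0.077 and 3 members an unadjusted p below 0.05. For the difference between the treatment effects, described next, Cidec and Plin1 stayed called (adjusted p = 0.036 and 0.034), while Cidea (-3.45, adjusted p = 0.073) and the second probe of Cideb (-0.45, 0.15) did not. When only the HFD and HFD MTX50 arrays entered the limma fit, no member was called (adjusted p = 0.079 for Cidea, 0.087 for Cidec, 0.072 for Fitm1 and 0.089 for Fitm2), although 7 had an unadjusted p below 0.05, and 0 of all 19597 genes were called.

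The effect of methotrexate differed between the diets for Cidea, Cidec and Plin1, 3 of 10 members, where 26.8% of all genes tested were called. The drug's effect on the high fat diet minus its effect on the low fat diet was -2.88 ± 0.94 for Cidea (limma adjusted p = 0.033), -1.44 ± 0.29 for Cidec (adjusted p = 0.0061) and -1.07 ± 0.19 for Plin1 (adjusted p = 0.0049). Cidec on its brighter probe and Plin1 had differences of opposite sign on the 2 diets. They were 0.49 and 0.66 on the low fat diet against -0.95 and -0.41 on the high fat diet. Of these, the Plin1 rise and the Cidec fall were called. The second probe of Cidec gave -0.44 and -3.51, the same sign on both diets, and neither was called. On the second probe of Cidec the difference between effects was -3.08 ± 1.60 (adjusted p = 0.16), and on the second probe of Cideb it was -0.46 ± 0.16 (adjusted p = 0.045). Fitm1 and Plin2, which had the largest falls on the low fat diet, gave 0.54 (95% interval -0.47 to 1.54) and 0.45, neither of them called. For Cidea the difference was not called without LFD mouse 1, 2 or 4, LFD MTX50 mouse 3, HFD mouse 3 or 4, or HFD MTX50 mouse 5 (-2.90 to -2.37, adjusted p from 0.050 to 0.081), and it was -3.69 without HFD mouse 1. Nor was it called with the slide as a random block or under quantile normalisation (-2.75, adjusted p = 0.056). For Plin1 it was -0.39 and not called with normexp and 1 background per array (adjusted p = 0.11), and -0.53 under quantile normalisation (adjusted p = 0.024). For Cidec it was -2.26 and not called on the mean of both probes (adjusted p = 0.058). For the second probe of Cideb it was called in 4 of the 18 fits without 1 array, and not under median scaling (-0.32, adjusted p = 0.16).

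**Figure D4:**
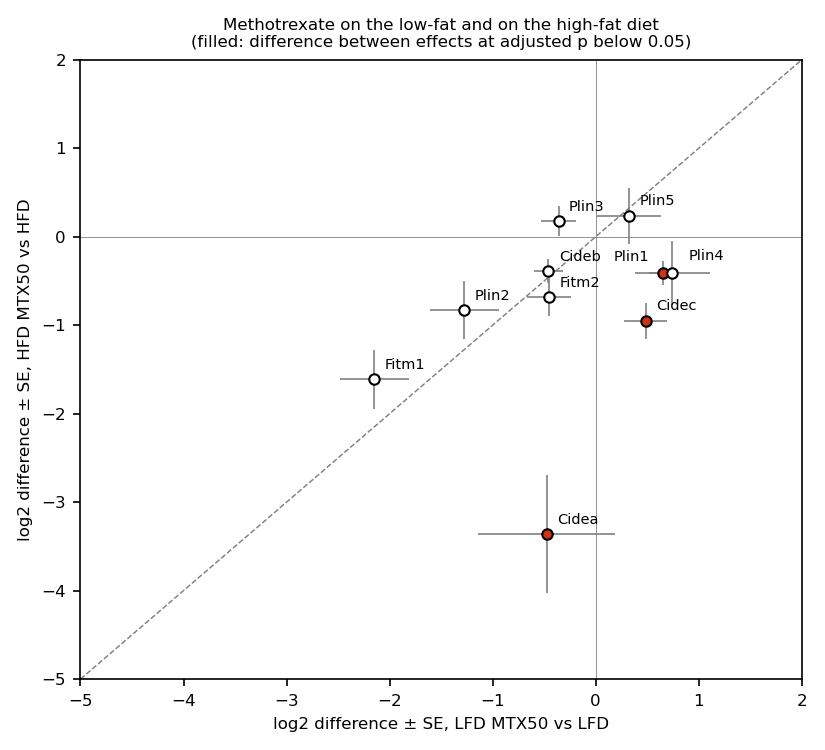
Log2 difference with methotrexate on the low fat diet (x axis) and on the high fat diet (y axis) for the 10 genes, with SE bars. The dashed line marks equal effects, and filled points have a difference between the effects at an adjusted p below 0.05. Cidea, at -0.48 and -3.36, lies farthest below the line, while Fitm1 and Plin2 are negative on both axes.

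Promoters were looked at for a motif of the receptors that regulate several of these genes, since peroxisome proliferator-activated receptors bind direct repeats of the half-site AGGTCA with 1 base between. RefSeq promoters on GRCm38.p6 were matched by symbol for 9 of the 10 genes, giving 11 promoters, of which the 250 bases before the start were searched on both strands. The half-site was found once in Plin2 and once in 1 of the 2 promoters of Plin5, and 14.0% of all 32851 promoters held it. None of the 11 held the full repeat AGGTCANAGGTCA, which 0.0335% of all promoters held. The sequences of Plin2, which fell in LFD MTX50, of Plin5, which was not called, and of Fitm1, which was called in all 4 comparisons between groups and holds no half-site, are shown 5′ to 3′ with the half-site in capitals. They are chr4:86670060-86670309 on the minus strand, chr17:56117549-56117798 on the minus strand and chr14:55575424-55575673 on the plus strand. A match is a description of these letters only.
Plin2: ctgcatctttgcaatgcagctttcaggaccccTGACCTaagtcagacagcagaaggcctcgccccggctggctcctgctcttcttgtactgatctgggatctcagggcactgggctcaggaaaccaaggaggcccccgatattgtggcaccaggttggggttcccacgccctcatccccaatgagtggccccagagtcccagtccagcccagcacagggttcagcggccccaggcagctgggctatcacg
Plin5: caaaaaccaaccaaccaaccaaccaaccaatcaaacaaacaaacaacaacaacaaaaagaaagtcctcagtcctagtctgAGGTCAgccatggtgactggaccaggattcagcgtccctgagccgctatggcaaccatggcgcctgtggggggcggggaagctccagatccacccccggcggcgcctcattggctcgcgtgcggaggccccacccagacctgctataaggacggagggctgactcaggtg
Fitm1: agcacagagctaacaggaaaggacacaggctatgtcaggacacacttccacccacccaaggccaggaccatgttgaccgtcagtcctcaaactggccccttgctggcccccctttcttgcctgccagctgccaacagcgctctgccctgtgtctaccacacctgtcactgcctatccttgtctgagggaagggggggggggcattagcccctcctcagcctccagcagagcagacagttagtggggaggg

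A list of 23 other droplet proteins was read beside the family. In HFD vs LFD none was called higher and 4 were called lower, with a list median of -0.18: Pnpla3, a droplet lipase, fell by 3.18 ± 0.93 (limma adjusted p = 0.020) on a probe above background in 3 of the 4 HFD livers, Faf2, a droplet-associated factor of protein degradation, by 0.57, Abhd5, the co-activator of adipose triglyceride lipase, by 0.52, and Dgat2, the last enzyme of triglyceride synthesis, by 0.48. In LFD MTX50 vs LFD 2 were called higher and 7 lower, with a median of -0.14. G0s2, an inhibitor of adipose triglyceride lipase, fell by 1.80 ± 0.49 (adjusted p = 0.015), the methyltransferase-like droplet proteins Mettl7a1 and Mettl7b each by 0.87, Abhd5 by 0.83 and the monoglyceride lipase Mgll by 0.76. On the high fat diet with methotrexate, 1 was called higher and 2 lower, with a median of -0.03. Pnpla2, the adipose triglyceride lipase itself, rose by 0.76 ± 0.19 (adjusted p = 0.023), while its inhibitor G0s2 fell by 1.93 ± 0.49 (adjusted p = 0.024) and Mgll fell by 0.62. Between the treated groups 1 was higher and 3 were lower, among them Pnpla3 (-2.96 ± 0.83, adjusted p = 0.027), whose probe was above background in 3 of the 5 HFD MTX50 livers. Its differences rest in part on values at background. Of all genes tested, 28.3% were called for the diet without the drug and 28.1% for the drug on the low fat diet. The share was 11.0% for the drug on the high fat diet and 16.1% between the treated groups. Whether the list was called more often than all genes was not tested.

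Of a list of 8 transcription factors and co-activators, 2 were called higher and 2 lower in HFD vs LFD, against 28.3% of all genes. Pparg, which drives adipocyte droplet genes, rose by 0.72 ± 0.14 (limma adjusted p = 0.0043) and Rxra, its partner, by 0.26, while Ppargc1a, a co-activator of oxidative genes, fell by 1.20 ± 0.25 and the oxysterol receptor Nr1h3 by 0.45. Of these, Pparg and Ppargc1a were called with the opposite sign in HFD MTX50 vs HFD, Pparg by -0.70 ± 0.13 (adjusted p = 0.0090) and Ppargc1a by 0.76 ± 0.24 (adjusted p = 0.048), and these comparisons share the HFD livers. In LFD MTX50 vs LFD, Cebpb and Rxra rose by 1.04 and 0.32, and Creb3l3 and Nr1h3 fell by 0.56 and 0.34. Of all genes, 28.1% were called there, and 11.0% for the drug on the high fat diet. Whether the 8 listed genes act on the droplet genes in these livers was not tested. The drug's effect on Pparg differed between the diets by -0.53 ± 0.19 (adjusted p = 0.047).

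For the 5 members whose group means spanned at least 1 log2 unit, the 3 genes of most like profile were found among 19391 genes, by the root-mean-square difference of centred log2 levels over the 18 livers. For Cidea, whose levels had an SD of 2.05 over all livers, they were Adgrv1, an adhesion receptor (0.86), Mogat1, a monoacylglycerol acyltransferase (1.02), and Osbpl3, an oxysterol-binding relative (1.07). For Fitm1, with an SD of 1.31, they were Tlr12 (0.44), the intestinal-type fatty acid-binding protein gene Fabp2 (0.46) and Paqr7 (0.47). Paqr7 was also the nearest to Plin2 (0.32), before Sgk2 (0.34) and Arsa (0.37). For Plin4 they were Svs5 (0.34), the peroxisome gene Pex11a (0.34) and Cyp2b13 (0.35), and for Cidec Il2 (0.26), Gdf11 (0.27) and Trub1 (0.27), at a spread of 0.68 and 0.55 for the members themselves.

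Markers of fat and muscle were read because Plin1, Plin4, Cidea, Cidec and Fitm1 are also genes of those tissues. The share of all genes called was 28.3% in HFD vs LFD, 28.1% in LFD MTX50 vs LFD and 11.0% in HFD MTX50 vs HFD. The 7 adipocyte markers summed to between 1.63 and 2.19 times the 75th percentile in LFD, 2.25 and 4.26 in LFD MTX50, 5.66 and 8.27 in HFD, and 2.69 and 3.67 in HFD MTX50. Of the 6 that could be tested, 2 were higher and 1 was lower in HFD vs LFD: Cfd, the complement factor adipsin, rose by 5.99 and the leptin gene Lep by 2.30, while Adrb3, the beta-3 adrenergic receptor gene, fell by 1.01. In LFD MTX50 vs LFD 3 were higher and none lower, Lep by 1.46 and Adrb3 by 0.60 besides adiponectin. On the high fat diet with methotrexate 2 were higher, Adrb3 by 1.35 besides adiponectin, and Cfd fell by 5.32. The defining marker adiponectin, Adipoq, was at -4.46 in LFD and -4.499 in HFD and was higher with methotrexate by 0.68 and 0.88, and Trarg1 was above background on none of the 8 untreated livers. The brown adipocyte marker Ucp1 was above background on 4 of 18 arrays. The 3 markers of that type summed to between 0.71 and 0.99 in LFD and 0.68 and 0.98 in LFD MTX50. Their sums were 0.87 to 1.24 in HFD and 0.59 to 0.88 in HFD MTX50. Of the 3, Zic1 was called higher in HFD vs LFD, by 0.54, and in LFD MTX50 vs LFD, by 0.46. Zic1 and Cox7a1 were called lower in HFD MTX50 vs HFD, by 0.51 and 0.65. The 10 skeletal muscle markers summed to between 10.0 and 11.1 in LFD and 8.70 and 16.5 in LFD MTX50. The sums were 15.03 to 16.2 in HFD and 9.13 to 14.3 in HFD MTX50. Pvalb, the brightest of the 10, weighs most in them and was not called in HFD vs LFD (limma adjusted p = 0.096). Singly, 3 were called higher and 0 lower in HFD vs LFD. In LFD MTX50 vs LFD 3 were higher and 1 lower, Myh2 by 2.72. In HFD MTX50 vs HFD 0 were higher and 1 lower. The 4 neutrophil markers summed to between 0.54 and 1.497 in HFD and between 0.73 and 47.8 in HFD MTX50. The median of HFD MTX50 was 4.59, and mouse 5 was the highest. They summed to between 0.56 and 0.91 in LFD and 0.53 and 6.29 in LFD MTX50. Of the 4, 0 were called in HFD MTX50 vs HFD. Ngp was called higher in LFD MTX50 vs LFD, by 2.49, on a probe above background in 0 of the LFD livers. The 6 Kupffer cell and macrophage markers summed to between 21.2 and 39.1 in HFD and between 40.2 and 52.1 in HFD MTX50, without overlap. The sums were 28.9 to 44.2 in LFD and 23.3 to 30.0 in LFD MTX50. Cd68, the brightest of the 6, weighs most in these sums. Singly, 0 of the 6 were called in HFD MTX50 vs HFD (list median 0.60). In LFD MTX50 vs LFD only Cd68 was called, at -0.94 (limma adjusted p = 0.017). The list median there was 0.29, with Clec4f, Cd5l, Marco and Vsig4 positive and Adgre1 negative. The 2 erythroid markers on the array summed to between 2.83 and 3.38 in LFD and 0.17 and 0.69 in LFD MTX50, again without overlap, and to between 2.46 and 3.36 in HFD and 0.43 and 2.67 in HFD MTX50. Alas2, the erythroid enzyme of heme synthesis, fell by 2.99 in LFD MTX50 vs LFD (limma adjusted p = 0.00089). The part of these cell types in the differences of the droplet genes was not tested.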

How the data were processed

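Liver RNA was read on one-colour Agilent arrays. The authors deposited spot intensities from Agilent Feature Extraction 10.7.3.1, background-subtracted and detrended within each array per the file headers, and not scaled between arrays. From the log2 of each intensity the array's own 75th percentile (log2) was subtracted, since the authors' methods name no normalisation. Spots marked as outliers (124 to 294 per array) were left out, repeated spots of 1 probe were averaged, and 0 spots reached saturation. Probes well above background on at least 4 arrays were kept, 35735 of 39429. On an array, 83.8 to 90.6% of probes lay above background. Probes were named through RefSeq accessions (28025 probes, 71.1%), of which 19597 genes were kept. The number of arrays limits the precision.

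limma 3.58.1 in R 4.3.3 fitted 1 model of the 4 groups, and p-values were adjusted after Benjamini-Hochberg over the kept probes. Exact permutation tests of single genes were two-sided, and the smallest p is 0.029 for 4 against 4 mice and 0.0079 for 4 against 5. Each sample is 1 mouse by its label. Named genes are all members, at most 5 called genes of each list per comparison by size, and the 3 genes nearest in profile to a member. Marker genes were read as a check. The members and lists were chosen with earlier results of these data known. Alternatives were background, scaling, filter, variance, probe, slide, replicate number, test and omission of each array. The value table deposited with the series, the authors' rounded intensities, served as 1 alternative. The code was tested on simulated data.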

Additional observations from a re-analysis of the deposited data

Results flagged for a closer look

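In 3 of 48 groups of mice, taken probe by probe over the 12 member probes, 1 liver stood apart from the rest of its group by Dixon's criterion, and chance flags about 1 in 20 groups. Cidea was at -0.095 in HFD MTX50 mouse 4, where the next highest treated HFD liver was at -2.22. Plin5 was at 4.12 in HFD MTX50 mouse 2, against 2.76 in the next. The second probe of Cideb was at 0.70 in LFD mouse 1, below 0.91 in the next lowest LFD liver.

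The effect of methotrexate differed between the diets, by limma's test of the difference between the effects, for Cidea (-2.88), Cidec (-1.44), Plin1 (-1.07) and the second probe of Cideb (-0.46). With the slide as a random block the differences of Cidea and of the second probe of Cideb were not called (adjusted p = 0.073 and 0.15), and Cidea was not called under quantile normalisation (0.056). With normexp and 1 background per array Plin1 was at -0.39 and not called (adjusted p = 0.11). On the mean of both probes Cidec was at -2.26 and not called (adjusted p = 0.058).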

How the results depend on the processing

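Of 933 values of member probes under the other settings 910 kept their sign, and of 1080 values without 1 array 1063 did. No value that changed sign was called under that setting, and 2 of them had been called before (Fitm2 and Plin1, both under normexp). The counts of called members without 1 array ran from 3 to 5 in HFD vs LFD, from 3 to 5 in LFD MTX50 vs LFD, from 1 to 5 for HFD MTX50 vs HFD, from 1 to 3 in HFD MTX50 vs LFD MTX50 and from 2 to 4 for the difference between the treatment effects. Of all genes, 11.5% to 32.1%, 16.3% to 31.7%, 1.44% to 15.5%, 6.98% to 21.8% and 15.3% to 31.7% were called in these fits. The low counts of 3 in HFD vs LFD came without LFD mouse 2 or 4 or HFD mouse 3 or 4. There 16.9%, 18.3%, 11.5% and 13% of all genes were called. Those of 2 and 1 in HFD MTX50 vs HFD came without HFD mouse 3 and HFD mouse 4, where 1.53% and 1.44% of all genes were called. In HFD MTX50 vs LFD MTX50 the count was 1 without LFD MTX50 mouse 1, 2 or 3 or HFD MTX50 mouse 3, 4 or 5. In those fits 6.98% to 12.9% of all genes were called.

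Normexp on the median signals with local backgrounds called 0 members in each of the 5 comparisons, against 2 to 5 with an unadjusted p below 0.05 in limma, and of all 19597 genes it called 2, 339, 0, 1 and 0. On 9 arrays the highest local background of a spot was 2124 to 202466 intensity units, and at most 401.5 on the others. With 1 background per array, chosen after seeing the data, it called 4, 3, 4, 2 and 2. The shares of all genes were then 18.3%, 21.2%, 9.15%, 15.6% and 19.7%. Under the slide as a random block the count was 2 in HFD vs LFD, 1 in LFD MTX50 vs LFD and 0 in HFD MTX50 vs LFD MTX50 (unadjusted 3), where 1.94%, 1.73% and 0.0919% of all genes were called, and 2 for the difference between the treatment effects (6.37%). With only the groups compared it was 0 in HFD MTX50 vs HFD (unadjusted 7) and 0 in HFD MTX50 vs LFD MTX50 (unadjusted 4), with 0 and 9 of all genes called, and on the shared slide alone it was 0 (unadjusted 4), with 0 of all genes. The methods' t-test with adjustment called 0 in both of these comparisons (unadjusted 7 and 3, with 0 and 113 of all genes). At p up to 0.015 it called 6 and 1, where 10.5% and 12% of all genes were called. With a 2-fold change required the counts were 2 in LFD MTX50 vs LFD, 2 for HFD MTX50 vs HFD and 1 for HFD MTX50 vs LFD MTX50. Of all genes, 4.75%, 0.975% and 2.56% were then called. The last count was also 1 under quantile normalisation and under a trend with robust variances, with 16.6% and 16.7% of all genes. The cause of these losses was not tested.

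Deviations from the group means correlated at -0.314 to 0.255 between same-numbered livers of the groups compared. Livers of different numbers were not set beside them, so these values cannot decide whether replicate numbers pair the mice. The main fit took the mice as unpaired. With the replicate block the counts were 5, 4, 3, 2 and 3, where 27.1%, 27.6%, 5.17%, 14.8% and 25.8% of all genes were called. Calls lost under the block were those of Plin1 in HFD MTX50 vs LFD MTX50 (adjusted p = 0.052) and of Fitm2 between the HFD groups (0.077), and Plin2 (0.89, adjusted p = 0.041) and the second probe of Cidec (2.86, 0.0498) became called in HFD MTX50 vs LFD MTX50.

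Values that changed sign under normexp were 0.62 (Cidea), 0.51 (second probe of Cidec) and 0.75 (Fitm2) in LFD MTX50 vs LFD, then 1.26 (Plin1), -0.0044 (Plin3) and 0.56 (Fitm2) for HFD MTX50 vs HFD, -0.062 (Cideb), 0.27 (Cidec), 0.77 (Plin1) and -0.060 (Plin3) in HFD MTX50 vs LFD MTX50, and 0.15 for the difference of Plin5. That difference was also 0.039 with 1 background per array, 0.054 with median scaling and 0.012 with the value table. Under quantile normalisation, which took the median of all genes in LFD MTX50 vs LFD from 0.10 to -4.5e-05, they were 0.22 (Cideb) and 0.043 (Plin5) in HFD vs LFD, -0.0033 (Cideb) in HFD MTX50 vs LFD MTX50, and -0.23 (Cideb) and 0.041 (Fitm2) for the difference. With the mean of both probes they were 0.11, -0.084 and -0.19 for Cideb in HFD vs LFD, between the treated groups and for the difference, and 1.37 for Cidec in HFD MTX50 vs LFD MTX50. Without 1 array they ranged from -0.10 to 0.042 (Cideb, HFD vs LFD), -1.92 to 0.47 (second probe of Cidec, LFD MTX50 vs LFD), -0.073 to 0.37 (Plin5, HFD MTX50 vs HFD), and for HFD MTX50 vs LFD MTX50 -0.054 to 0.11 (Cideb), -0.019 to 0.18 (Plin3) and -0.26 to 0.32 (Plin4), with -0.039 to 0.16 (Cideb) and -0.40 to 0.078 (Plin5) for the difference. The calls of Plin1, read at a low signal, depend on the background and scaling.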
